A study of Homo sapiens with 12 samples.

Results

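The genes described here encode the heat shock factors HSF2 and HSF4, the HSF1-binding protein HSBP1, the NF-Y subunits NFYA, NFYB and NFYC, and SP1. They were taken by name from GENCODE release 44 on hg38, 7 of 20033 protein-coding genes. Both libraries used came from untreated, wild-type Huh7 cells, a hepatocellular carcinoma line. CUT&Tag, in which an antibody directs a transposase to its target on chromatin, was performed with an antibody to HSF1 in 1 library and with an antibody to H3K27ac, a mark of active promoters and enhancers, in the other, which the methods name as the positive control. The peak file of the latter calls its library HSF1_H3K27ac, and it was taken as H3K27ac from the sample title. With 1 library per antibody there is no replicate check, and no difference below was tested; the only p-values are those of the peak caller. After removal of duplicates 2712212 tags (75.2%) of the HSF1 library and 896393 tags (5.70%) of the H3K27ac library remained. They gave 7147 and 1299 peaks on chromosomes 1 to 22, X and Y. Of 9 genes typical of hepatocytes, only HNF4A had an H3K27ac summit within 1 kb of a start or inside the gene, and none of 4 genes of blood, endothelium or fibroblasts did. HSF1 summits were found at APOB and HNF4A of the former and at COL1A1, a fibroblast collagen gene, of the latter. These lists do little to check the cell type.

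Heat shock factors bind as trimers to heat shock elements, repeats of GAA in alternating orientation, and drive chaperone genes under stress. HSF1 is the main factor of that response, HSF2 acts with it and in development, HSF4 serves the lens, and HSBP1 binds HSF1 trimers and restrains them. NF-Y is a heterotrimer of NF-YA, NF-YB and NF-YC. NF-YB and NF-YC pair through histone folds, and NF-YA joins them and reads the CCAAT box, which lies in the proximal promoters of many genes. SP1 is a zinc finger protein that binds GC boxes, often near a CCAAT box. The question addressed here was whether HSF1 peaks lay at the genes of these factors, and with which boxes. NF-Y and SP1 binding was not measured.

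The promoter stretches that carry the comparison are those of NFYA, SP1, HSF2 and NFYC, printed in the direction of the gene, with CCAAT on either strand in capitals (ATTGG is the box on the other strand). NFYA and SP1 had an HSF1 peak, and HSF2 and NFYC, whose stretches also hold CCAAT boxes, had none. The NFYC stretch is the richest in the box of its 3 starts, and NFYA has further boxes beyond the end of its stretch. The NFYA, HSF2 and NFYC stretches are RefSeq promoters (GRCh38.p14, 250 bases before to 50 after the start, plus strand) at chr6:41072724-41073023, chr6:122399301-122399600 and chr1:40709116-40709415, the last at the second of 3 NFYC starts. The HSF1 summit of NFYA is base 108 of its stretch. The SP1 stretch is hg38 chr12:53379840-53380139, plus strand, with the HSF1 summit at base 101. It is placed by the summit and not by the start, so its number of boxes is not comparable with that of the other stretches.
NFYA: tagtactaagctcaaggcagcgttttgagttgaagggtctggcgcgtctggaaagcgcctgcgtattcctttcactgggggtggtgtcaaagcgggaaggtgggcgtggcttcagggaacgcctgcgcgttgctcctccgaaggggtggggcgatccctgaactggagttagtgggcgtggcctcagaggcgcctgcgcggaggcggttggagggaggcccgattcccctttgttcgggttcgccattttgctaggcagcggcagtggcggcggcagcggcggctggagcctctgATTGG
SP1: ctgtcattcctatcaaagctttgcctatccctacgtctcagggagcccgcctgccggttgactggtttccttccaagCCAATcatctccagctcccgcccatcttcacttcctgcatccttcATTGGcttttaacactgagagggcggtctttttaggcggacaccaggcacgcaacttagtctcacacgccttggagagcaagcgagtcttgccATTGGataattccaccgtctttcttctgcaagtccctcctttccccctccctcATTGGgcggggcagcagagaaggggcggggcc
HSF2: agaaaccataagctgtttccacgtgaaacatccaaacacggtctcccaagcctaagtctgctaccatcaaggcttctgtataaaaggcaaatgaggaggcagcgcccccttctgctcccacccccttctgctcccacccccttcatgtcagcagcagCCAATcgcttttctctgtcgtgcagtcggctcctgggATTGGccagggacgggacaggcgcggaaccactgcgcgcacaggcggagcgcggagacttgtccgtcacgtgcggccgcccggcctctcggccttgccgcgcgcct
NFYC: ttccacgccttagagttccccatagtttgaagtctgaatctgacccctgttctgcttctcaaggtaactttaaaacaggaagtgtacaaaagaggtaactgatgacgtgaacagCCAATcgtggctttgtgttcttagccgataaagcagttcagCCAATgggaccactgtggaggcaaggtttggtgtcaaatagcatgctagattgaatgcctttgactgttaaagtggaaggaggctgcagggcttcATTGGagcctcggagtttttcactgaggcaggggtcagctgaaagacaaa

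Of the 7 genes, NFYA and SP1 had an HSF1 summit within 1 kb of an annotated transcript start. That is 28.6% (95% Wilson interval 8.22% to 64.1%), against 25.4% of all protein-coding genes, so the share was near the background. No HSF1 summit lay inside any of the 7 genes, so 2 of 7 (28.6%) had a summit within 1 kb of a start or inside the gene, against 29.5% of all protein-coding genes. No H3K27ac summit lay within 1 kb of a start of the 7 genes, against 3.31% of protein-coding genes, or inside them, against 4.78% with either. The H3K27ac list is short and comes from few tags, so absence from it is a statement about this depth only. Of the 5098 genes with an HSF1 peak at a start, 515 (10.1%) also had an H3K27ac peak at a start. The share over all protein-coding genes was 3.31%, or 664 genes, and 515 of those 664 had an HSF1 peak at a start.

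NFYA, the DNA-reading subunit of NF-Y, had an HSF1 peak on chromosome 6 from 41072388 to 41073177 (hg38). Its summit at 41072831 had a pileup of 43 extended tags and a fold enrichment of 12.2, the summit pileup over the local background with 1 added to each. The local background was 2.62 tags and the -log10 p 37.1. By fold enrichment it exceeded 98.0% of the HSF1 peaks and by pileup 98.3%, which placed it at rank 144 and rank 117 among 7147. It was 790 bp long, longer than 98.5% of HSF1 peaks. The summit lay 143 bp upstream of the NFYA start at 41072974 (ENSG00000001167.15, plus strand, 41072974 to 41102403).

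The NFYA peak also lay at a start of OARD1, which encodes an ADP-ribose hydrolase and is transcribed from the minus strand. The nearest OARD1 start lies 360 bp from that of NFYA, and the summit lay 217 bp upstream of it, between both starts. Other OARD1 transcripts start farther into NFYA, so that the summit falls in an OARD1 intron. To which of the genes the peak belongs cannot be told from its position.

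SP1, the GC-box factor, had a higher pileup at a slightly lower fold enrichment. Its HSF1 peak lay on chromosome 12 from 53379401 to 53380255, with the summit at 53379940, 236 bp upstream of the SP1 start at 53380176 (ENSG00000185591.10, plus strand, 53380176 to 53416446). The pileup at the summit was 55 tags over a local background of 3.8 tags, for a fold enrichment of 11.7. It ranked 215 in fold enrichment and 56 in pileup among all HSF1 peaks, so that 96.9% and 99.1% of them were lower. The peak was 855 bp long, longer than 99.3% of HSF1 peaks. No annotated gene covers its summit, and no other gene starts within 1 kb of it.

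Both peaks were thus in the upper tail also among promoters. The 4424 HSF1 peaks within 1 kb of a start of a protein-coding gene had a median fold enrichment of 7.14 and a median pileup of 14 tags. Of them 97.9% had a lower fold enrichment than the NFYA peak and 96.6% a lower one than the SP1 peak. By pileup SP1 ranked 20 and NFYA 66 among these promoter peaks. Over all pairs of a protein-coding gene and a promoter peak the summit had a median position of -57 bp from the nearest start, with quartiles of -165 and 0.5 bp. The NFYA summit, 143 bp upstream, lay between these quartiles and the SP1 summit, 236 bp upstream, lay beyond the lower quartile.

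**Figure D1:**
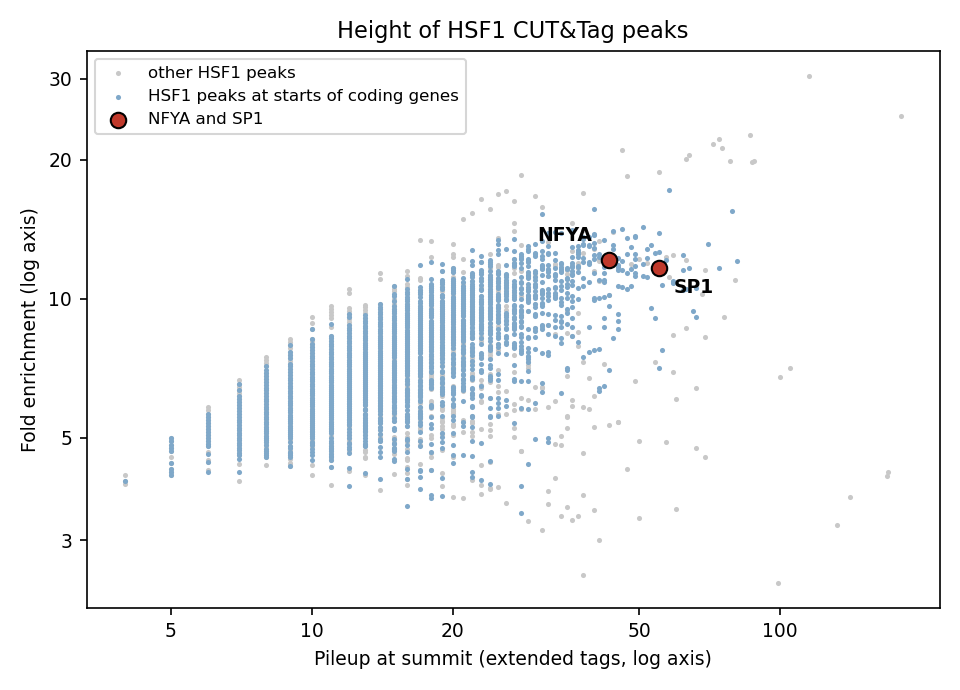
Pileup at the summit (extended tags) against fold enrichment of the HSF1 CUT&Tag peaks of untreated Huh7 cells, both on log axes. Blue points are peaks within 1 kb of a start of a protein-coding gene, grey points the other peaks, and the red points mark NFYA (43 tags, fold enrichment 12.2) and SP1 (55 tags, 11.7) in the upper right of the cloud.

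The heat shock factor genes and the histone-fold subunits of NF-Y had no HSF1 peak nearby. The distance from the nearest annotated start to the nearest HSF1 summit was 189 kb for HSF2, 14.7 kb for HSF4 and 289 kb for HSBP1. For the histone-fold subunits it was 149 kb at NFYB and 93.7 kb at NFYC. Across all protein-coding genes the median distance was 45.7 kb, so HSF4 lay closer and the other 4 farther than the median. The nearest summit to HSF4 had a pileup of 19 tags and lay in an exon of MATCAP1, 143 bp before the nearest of its starts, and that to NFYB had 18 tags and lay 18 bp downstream of a start of TXNRD1, thioredoxin reductase. The nearest to NFYC had 15 tags and lay 106 bp upstream of CITED4. Those nearest to HSF2, with 7 tags, and to HSBP1, with 9 tags, lay in introns of PKIB and MBTPS1. Whether these summits bear on the genes described here was not tested.

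HSF1 itself had no HSF1 summit within 1 kb of any of its starts, nor had HSF5 or HSBP1L1, the other relatives examined. The nearest summit lay 153 kb from HSF1, 29.6 kb from HSF5 and 29.9 kb from HSBP1L1. Peaks below the cutoff of the caller are not listed, and the smallest HSF1 pileup listed was 4 tags, so weaker HSF1 signal at these genes would not appear among the peaks.

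The nearest H3K27ac summit lay 8.91 kb from a start of SP1, 81.9 kb from HSBP1 and 149 kb from NFYB. It lay 211 kb from NFYC, 358 kb from NFYA, 689 kb from HSF4 and 1237 kb from HSF2.

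CCAAT boxes lay differently in the NFYA and SP1 peaks. Within 100 bp of the summit the pentamer CCAAT was found on either strand at SP1 and was not found at NFYA, or at 1 of 2 peaks, against 35.6% of the promoter peaks. At SP1 the boxes nearest to the summit lay 21 bp before and 24 bp after it, and both had the longer form with 2 purines before the pentamer and C or G and then a purine after it. The longer form was within 100 bp of the summit in 16.5% of promoter peaks. At NFYA the nearest CCAAT lay 190 bp from the summit, 47 bp downstream of the start in an exon.

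Over the whole peak NFYA held 5 CCAAT boxes and SP1 held 11, a measure chosen after the peaks were seen. The NFYA boxes lay at -537, 47, 74, 127 and 165 bp from its start, so 4 of the 5 were downstream of it. The box at -537 bp falls in an exon of OARD1, those at 47 and 74 bp in an exon of NFYA, and the other two in an intron. Only the box at 74 bp had the longer form. All 11 boxes of SP1 lay upstream of its start, from -725 to -66 bp, 7 on the minus and 4 on the plus strand. The longer form was present at 4 of them, at -653, -439, -257 and -212 bp. Of 4424 promoter peaks only 3 (0.0678%), SP1 included, held 11 or more CCAAT boxes, and 3.44% held 5 or more.

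Long peaks have more room for a pentamer. Among the 79 promoter peaks of at least 790 bp the median was 2 boxes, 22 (27.8%) held 5 or more and 2 (2.53%) held 11 or more. The density was 6.33 boxes per kb at NFYA and 12.9 at SP1. In these 79 peaks, which include both, the median was 2.28 and the mean 3.33. Of them 22.8% were at least as dense as the NFYA peak and 1.27% at least as dense as the SP1 peak.

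GC boxes, written GGGCGG and searched on both strands with overlapping matches counted singly, lay within 100 bp of the SP1 summit and not of the NFYA summit, against 65.9% of promoter peaks. The SP1 peak held 6, the nearest 4 bp from the summit, and the one at -62 bp overlapped the CCAAT box at -66 bp. The NFYA peak held 4, the nearest 238 bp from its summit and on the side of OARD1. The NFYA summit thus had neither box within 100 bp, though the stretch of 100 bp to either side had a GC content of 63.7% against a median of 66.7% at promoter peaks. That of SP1 was 54.2%.

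No heat shock element was found within 100 bp of either summit, nor in the whole of either peak. The search asked for 3 alternating units of GAA and its complement TTC with 2 free bases between them, and allowed 1 mismatch in the 9 fixed bases. Such an element lay within 100 bp of 2.15% of promoter summits, so its absence from 2 peaks is near the background. A looser form of 2 exact adjoining units, GAANNTTC or TTCNNGAA, was not found in either peak. Within 100 bp it lay at 4.79% of promoter summits. No match says only that these letters are not in these windows.

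**Figure D2:**
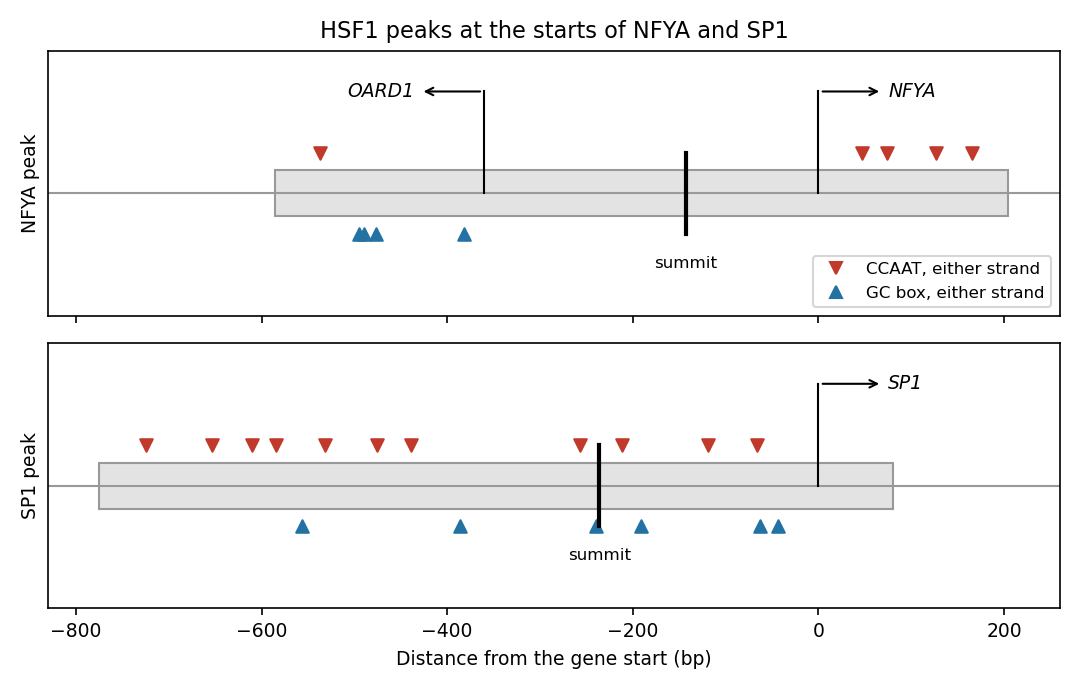
The HSF1 peaks at NFYA and SP1 (grey bars) by distance in bp from the gene start, with the summit as a thick line, gene starts as arrows, CCAAT boxes as red and GC boxes as blue triangles. The NFYA summit lies between the starts of OARD1 and NFYA with the nearest CCAAT 190 bp away, and the SP1 summit lies between CCAAT boxes 21 and 24 bp away in a peak that holds 11.

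RefSeq promoters were found for 6 of the 7 genes, NFYB being the exception, with 11 starts in all. Each of the 11 matched hg38 over its full length. CCAAT was present at 7 of the 11 starts, against 34.7% of 22198 promoters of protein-coding genes. The starts with the box were those of NFYA, all 3 of NFYC, both of HSF2 and the first of SP1. HSF2 had boxes at -91 and -54 bp from its first start, the former of the longer form, and both also fall within the overlapping promoter of its second start, at -192 and -155 bp. NFYC had 1 box at its first start, at -96 bp. At its second it had 3, of which those at -134 and -93 bp had the longer form and at the third it had 1, at -175 bp. HSBP1 and both starts of HSF4 had none.

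HSF2 and NFYC held CCAAT boxes without an HSF1 peak, and 2 of the 7 starts with a box had a peak. Of these 7 starts 3 belong to NFYC and 2 to HSF2, and the HSF2 starts share their boxes. Counted by gene instead, NFYA and SP1 had a peak and HSF2 and NFYC had none. Of all 7700 promoters with a CCAAT 29.0% had a peak, so the members' share of starts was near the background. GC boxes were present at 7 of the 11 starts, against 56.3% of promoters, with 10 at the second start of SP1 and 4 at the second of HSF4, neither of which had a CCAAT. No heat shock element was found at any of the 11 starts, against 4.96% of promoters.

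Across protein-coding promoters the share with an HSF1 summit within 1 kb rose with the number of CCAAT boxes. It was 19.3% (95% Wilson interval 18.7% to 19.96%) of promoters with 0 boxes and 23.6% (22.4% to 24.7%) of those with 1. With 2 boxes it was 33.3% (31.1% to 35.5%) and with 3 or more 54.9% (51.5% to 58.3%). The first SP1 promoter and the second NFYC promoter each had 3 boxes, and they fell on different sides, the former with and the latter without a peak. They differed in other ways too: the SP1 promoter had a GC content of 60.7% and 4 GC boxes, the NFYC promoter 46.7% and 0. Both HSF2 promoters had 2 boxes and no peak. The median GC content was 63.7% with 0 boxes, 59.7% with 1, 60.0% with 2 and 60.3% with 3 or more. Promoters of 1 gene can overlap and are not independent, the intervals cover counting error only, and whether NF-Y occupied these boxes was not tested.

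Related lists put the 7 genes beside their families. In the SP and KLF family, zinc finger factors of GC-rich boxes, 8 of 26 genes (30.8%, 95% Wilson interval 16.5% to 49.99%) had an HSF1 peak at a start. The highest fold enrichments were 11.4 at SP4, 10.7 at SP2, 9.29 at KLF7, 8.06 at KLF5 and 7.81 at KLF6, all below the 11.7 of SP1. The median over the 8 was 7.94, against 7.29 over all protein-coding genes with a peak. All 8 had a GC box and 6 had a CCAAT within 100 bp of the summit, against 65.9% and 35.6% of promoter peaks. Of the 26 genes KLF7 alone had an H3K27ac peak at a start, against 3.31% of protein-coding genes.

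Of 11 other genes named for CCAAT or similar boxes, 2 had a peak: NFIA, a nuclear factor I gene, with a fold enrichment of 7.89, and YBX1, the Y-box protein gene, with 6.25. The C/EBP genes on the list had none. Of 5 genes of other histone-fold proteins, POLE4 (6.25) and CHRAC1 (7.81) had a peak, and DR1, DRAP1 and POLE3 had none. Of HSF1, HSF5 and HSBP1L1 none had a peak. No heat shock element lay within 100 bp of the summits of any of these lists, against 2.15% of promoter peaks. With so few peaks its absence is near the background. The intervals of these short lists are wide and all include the 25.4% of all protein-coding genes. They do not show whether a list differs from that share, which was not tested.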

How the data were processed

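The authors aligned CUT&Tag reads to hg38 (Bowtie2 per their methods) and called peaks library by library with MACS 2.1.4 at a p cutoff of 1e-05, with no control, ends shifted by -100 bp and extended to 200 bp, and 1 tag kept per position, per the file headers. The deposited pileup is a signal in tags, with no correction for library size. Deposited fold enrichment, a ratio, was taken over the local background within 10000 bp. The deposited -log10 p-value is that of the caller. The deposited -log10 q-value, which the headers say is not calculated, served only as a filter.

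The H3K27ac ChIP-seq lists name hg19 in their headers and were not used, because the annotation here is hg38. The RNA-seq samples were not analysed here.

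Summits were assigned to every annotated transcript start within 1 kb. Percentiles are shares of HSF1 peaks with a lower value. All motif positions are those of the motif centre. The members and lists were chosen with earlier results of these data known. The text names all 7 genes and, by fold enrichment, up to 5 genes with a peak per related list. It also names list genes that share a pattern of features with a member, and some without a peak. The assignment and the searches for the CCAAT pentamer and the heat shock element of 3 units were tested on simulated data. The searches for the other motifs were not. Computations used pandas 2.3.3 and numpy 2.4.6 under Python 3.11.15, with plots by matplotlib 3.10.9 and intervals by scipy 1.17.1.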

Additional observations from a re-analysis of the deposited data

How the results depend on the processing

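Over 5 counts, 21 of 23 alternatives left the count as it was or within 1.5 times. Some of them could not have changed it. A stricter setting cannot raise a count of 0, and the NFYA and SP1 peaks lay far above the cutoffs of 5 in fold enrichment and -log10 q. NFYA and SP1 were the 2 genes with an HSF1 peak with the outermost start, protein-coding transcripts only, a summit within 500 bp or 2 kb, a -log10 q or a fold enrichment of at least 5, and any base of the peak within 1 kb. Searching the whole peak moved the number of member peaks with a CCAAT from 1 to 2 and the number with a GC box from 1 to 2, as NFYA was added, because the window was longer; the same search found them in 47.6% and 80.0% of promoter peaks. The counts of H3K27ac peaks and heat shock elements were 0 under every alternative run. The percentiles stayed between 97.9 and 98.6 at NFYA and between 96.6 and 99.3 at SP1. No paired analysis was possible because the results come from 1 library per antibody and no test. The HSF1 and H3K27ac libraries had 2712212 and 896393 tags, so absence of a peak is a statement about this depth only. Both were called with no control. The paper's methods describe a control lacking primary antibody, which these calls did not use. How far the listed peaks, those of NFYA and SP1 included, depend on the antibody was therefore not tested.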

Other observations

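The genes were also compared by 5 features: an HSF1 peak at a start, an H3K27ac peak at a start, and a CCAAT, heat shock element or GC box within 100 bp of the highest HSF1 summit at a start. SP1 had the HSF1 peak, the CCAAT and the GC box, and shared this pattern with SP2, SP3, SP4, KLF6, KLF13 and YBX1 of the related lists. In all, 1162 protein-coding genes had it, or 22.8% of those with an HSF1 peak. NFYA had the HSF1 peak and none of the other features, as did POLE4 and CHRAC1. That pattern was shown by 976 protein-coding genes, or 19.1% of those with a peak, so neither pattern is rare. HSF2, HSF4, HSBP1, NFYB and NFYC had no peak of either kind within 1 kb of a start, like 73.8% of protein-coding genes, HSF1 among them.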
